A study of Homo sapiens with 6 samples.

Results

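The genes described here are 35 genes of glycolysis and of the response to low oxygen, chosen by name and followed through every probe set that the platform annotation assigns to them alone. Of the 35 genes, 34 had at least 1 such probe set, out of 19775 genes that did, and together they held 75 of the 54613 probe sets measured. CA9, a carbonic anhydrase at the cell surface, had none in the annotation used here. A mean log2 value of at least 4 over the 6 arrays was reached by 64 probe sets, which covered 32 genes, and only these were tested. The other 11 probe sets lay at means of 1.79 to 3.94. They included both probe sets of EGLN3, an oxygen-sensing prolyl hydroxylase, and the 1 probe set of ALDOC, an aldolase isoform, so neither gene was tested. Kept apart were 3 control probe sets for GAPDH and 2 probe sets that list SLC2A3 together with SLC2A14. Where a gene had several probe sets, the one with the highest mean represents it.

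The cells were SK-Hep1, a human cell line established from an adenocarcinoma of the liver. All 6 samples were plated 24 hours before a lipid transfection and collected 16 hours after it, 3 with anti-miR-21 at 20 nM and 3 as mock samples that received PBS and no anti-miR-21. The labels name no control oligonucleotide, so an effect of blocking miR-21 and an effect of delivering an oligonucleotide cannot be told apart. The replicates are called biological, with nothing said about separate days, and the harvest protocol cites an Argonaute immunoprecipitation although the RNA is labelled as total.

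The treatment targets miR-21, a microRNA. MicroRNAs lower the messenger RNAs carrying a match to its seed. The mature strand is shown because it is the target of the treatment, with its seed (bases 2 to 8) in capitals. It is taken from RefSeq on GRCh38.p14, where it lies on the plus strand at chr17:59841273-59841294.
hsa-miR-21-5p: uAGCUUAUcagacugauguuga

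Glycolysis splits glucose into pyruvate in a preparatory phase that spends ATP and a payoff phase that returns it. The transcription factor HIF-1, whose oxygen-regulated subunit is encoded by HIF1A, raises many of these enzymes when oxygen is low. In normal oxygen the prolyl hydroxylases encoded by the EGLN genes mark HIF1A protein for destruction, and EGLN1 and EGLN3 are themselves HIF targets. Because that control acts on protein, the transcript of HIF1A need not follow the activity of HIF-1, which is usually read from its targets. Tumour cells, including liver cancer cells, often run glycolysis at a high rate even with oxygen present.

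The 6 arrays were close to one another, with correlations over the kept probe sets of 0.99387 to 0.99828. Anti-miR-21 replicate 1 lay nearest the mock arrays on the leading principal component. The 3' minus 5' difference of the GAPDH control probe sets, a measure of RNA integrity, was -0.27 ± 0.01 in mock and -0.27 ± 0.01 in anti-miR-21 (SD, n = 3, two-sided exact permutation p = 1, where the smallest possible is 0.1). Of 11 measured hepatocyte markers, 9 lay below a mean of 4, among them ALB and APOA1, and the other 2 were SERPINA1, at 11.9 in mock, and AFP, at 4.28. Among endothelial markers 7 of 10 lay below it, including PECAM1, CDH5 and VWF. The others were CAV1, at 15.1 in mock, ENG, at 10.3, and TEK, at 4.64. Above it were 6 of 7 mesenchymal markers and 4 of 6 epithelial markers, the latter including KRT18 and KRT8 but not CDH1. No tested marker of these lists, nor of the leukocyte list, was called between the groups. The mean level of the leukocyte list, with 4 of its 5 measured markers below 4, ran from 2.92 to 2.98 in mock and from 3.01 to 3.04 with anti-miR-21. The ranges of the other 4 lists overlapped.

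With anti-miR-21, 3 probe sets of these genes fell and none rose. Of these, 2 belong to EGLN1, the main oxygen sensor, and 1 to BNIP3, a mitophagy receptor. The representative probe set of EGLN1, its brightest, was level (log2 fold change 0.03), so EGLN1 is not among the genes called by their representative. Apart from ENO2 and PKM, the representatives of the tested glycolytic enzymes lay between -0.13 and 0.07 log2 units of mock. Some other probe sets of these enzymes lay outside that range. Further HIF targets, among them ENO2, P4HA1, PFKFB4, ANKRD37 and KDM3A, had representatives lower on every anti-miR-21 array than on any mock array. These did not pass the test. The representatives of PFKFB3 and ERO1A were higher on every anti-miR-21 array, also without passing. Other probe sets of PFKFB4 and ERO1A overlapped between the groups. Such separation of the arrays, in either direction, was seen for 25.5% of all genes. MAFF and TGFA, HIF targets outside the 35 genes, rose. In bulk RNA, fewer cells with a transcript and less of it in each cell cannot be told apart.

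In the counts behind this, 3 of 64 tested probe sets were lower at a limma adjusted p under 0.05, where 1.07% of all 22408 tested probe sets were lower, and 0 were higher, where 1.10% were (2.17% in either direction). At an unadjusted p under 0.05, 14 of the 64 were lower and 2 were higher, against 9.70% and 8.06% of all tested probe sets. Counting each gene by its representative, 1 of 32 genes fell and 0 rose, against 1.22% and 0.913% of all 10848 genes (2.13% in either direction). At an unadjusted p under 0.05, 8 member genes were lower and 1 was higher, against 11.3% and 6.84% of all genes. Groups of arrays that did not overlap were seen for 10 member genes on the lower side and 2 on the higher side, where 15.1% and 10.4% of all genes did so (25.5% in all). For probe sets these were 18 and 3 of 64, against 12.6% and 11.4% (24.0% in all). The log2 fold change was below 0 for 20 of 32 member genes and 44 of 64 member probe sets, against 56.7% of genes and 51.0% of probe sets. Its median was -0.03 over the 32 genes and -0.02 over all genes. These genes were picked as a list with earlier results known, so the counts describe them and are no test of the list.

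**Figure D1:**
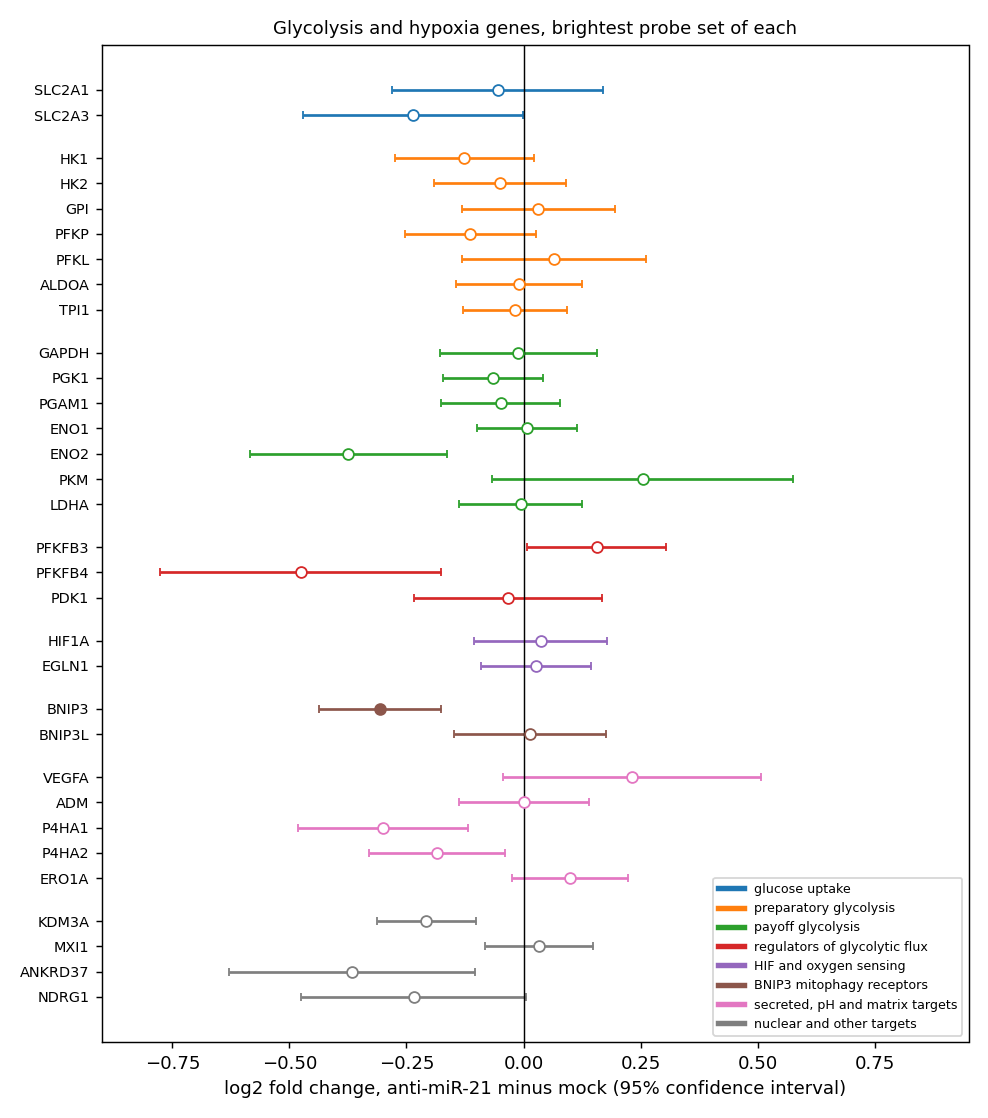
Log2 fold change (anti-miR-21 minus mock, horizontal axis) of the representative probe set of 32 genes, coloured by role, with the 95% confidence interval of the limma fit. The filled point, BNIP3 at -0.31, is the 1 representative that passed the test, and open points did not pass.

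The change of largest size was in EGLN1, which encodes PHD2, the prolyl hydroxylase that chiefly sets HIF1A protein levels in normal oxygen. On probe set 221497_x_at the mock arrays read 10.21, 10.00 and 10.07 and the anti-miR-21 arrays 9.52, 9.34 and 9.44. All 3 treated values lay below all 3 mock values, and the gap between the groups was larger than the spread within either. The log2 fold change was -0.66 ± 0.08 (SE, limma adjusted p = 0.0120), a fall of 1.58-fold.

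On probe set 224314_s_at the mock values were 9.44, 9.34 and 9.27 and the anti-miR-21 values 8.94, 8.97 and 9.05, again without overlap. This probe set fell 1.29-fold (log2 fold change -0.37 ± 0.06 SE, limma adjusted p = 0.0424). A dim probe set, 223045_at, read 4.83, 4.76 and 5.11 in mock and 4.67, 4.76 and 4.57 with anti-miR-21. Its log2 fold change was -0.23 (limma adjusted p = 0.298). The representative, 223046_at, was level. It read 11.82, 11.79 and 11.74 in mock and 11.84, 11.81 and 11.78 with anti-miR-21, with a log2 fold change of 0.03 (95% interval -0.09 to 0.14, limma adjusted p = 0.817).

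Whether the EGLN1 probe sets differed in their response was tested by subtracting, on each array, the mean of a gene's other kept probe sets, over all 5285 genes with several. Relative to its 3 companions the representative of EGLN1 was higher by 0.45 ± 0.07 SE with anti-miR-21 (limma adjusted p = 0.0339), where 1.63% of those genes and 1.03% of their probe sets had such a call. Probe set 221497_x_at stood at -0.47 by the same measure (adjusted p = 0.0525). The average of all 4 probe sets, which mixes these differing responses, was lower (log2 fold change -0.31 ± 0.05 SE, limma adjusted p = 0.0214). It does not show that every EGLN1 transcript fell, since the representative was level. The 2 probe sets that fell are of the kinds marked _x_at and _s_at, which can bind more than 1 transcript, and the arrays do not show which EGLN1 transcripts each detects. Leaving out anti-miR-21 replicate 2, anti-miR-21 replicate 3 or mock replicate 3 put 221497_x_at above the threshold (adjusted p = 0.0576, 0.0635 and 0.0503). Leaving out any 1 array did so for 224314_s_at (0.0695 to 0.166) and for the comparison among EGLN1 probe sets (0.0757 to 0.142). Probe set 224314_s_at also did not pass without the filter on low values (limma adjusted p = 0.064) or with replicate number as a block (0.172).

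**Figure D2:**
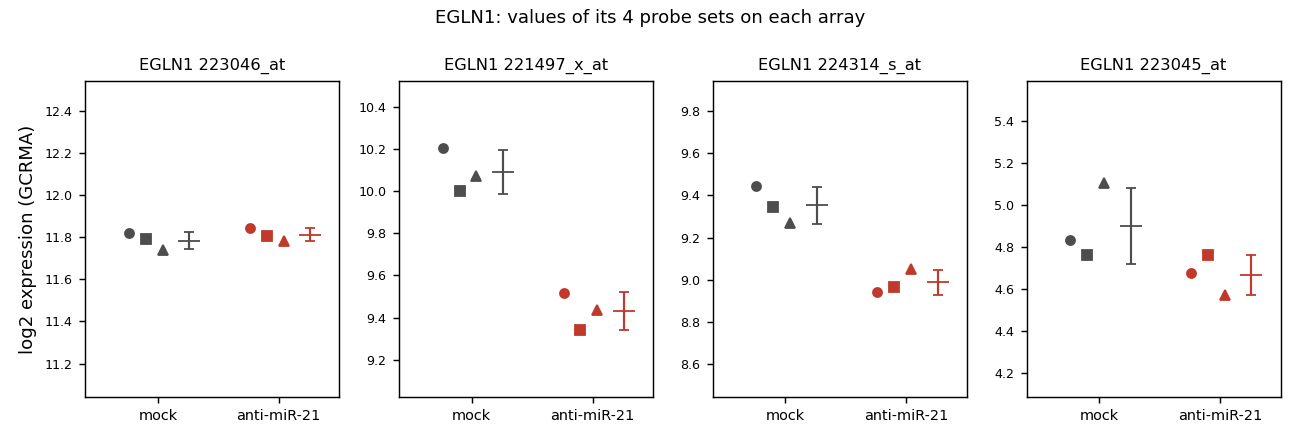
Log2 expression (vertical axis, a range of 1.5 in each panel) of the 4 EGLN1 probe sets, with circles, squares and triangles for replicates 1, 2 and 3 and the mean ± SD (n = 3) beside each group of mock (grey) and anti-miR-21 (red) arrays. The panels of 221497_x_at and 224314_s_at show the groups apart, at 10.09 against 9.43 and at 9.35 against 8.99, and that of 223046_at shows them level at 11.78 and 11.81.

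HIF1A, the oxygen-regulated subunit itself, had 1 probe set. It read 14.32, 14.28 and 14.15 in mock and 14.26, 14.31 and 14.29 with anti-miR-21, so the treated arrays lay inside the mock range. Its log2 fold change was 0.04 (95% interval -0.11 to 0.18, limma adjusted p = 0.788), and the sign turned with median centring.

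BNIP3 encodes a receptor on the outer mitochondrial membrane that recruits the autophagy machinery and is a well-known HIF target. Its representative read 13.36, 13.38 and 13.27 in mock and 13.08, 13.02 and 12.99 with anti-miR-21. The groups did not overlap, and the transcript fell 1.24-fold (log2 fold change -0.31 ± 0.05 SE, limma adjusted p = 0.0457). The other BNIP3 probe set read 12.03, 12.11 and 12.10 against 12.003, 11.86 and 11.90, also without overlap, at -0.16 (limma adjusted p = 0.222). The call on the representative sat close to the threshold and did not hold when any of the 6 arrays was dropped (adjusted p = 0.0580 to 0.175), with median centring (0.0745) and with both probe sets averaged (0.0561).

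BNIP3L, which encodes the related receptor NIX, was level. Its representative read 13.06, 13.06 and 12.87 in mock and 13.04, 12.98 and 13.02 with anti-miR-21 (log2 fold change 0.01, 95% interval -0.15 to 0.18, limma adjusted p = 0.932). The difference between the 2 genes on each array, BNIP3 minus BNIP3L, shifted by -0.32 between groups, without overlap (two-sided exact permutation p = 0.1, 0.175 adjusted over 7 paralog pairs). With 3 arrays a group no such pair can pass 0.05.

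HIF-1 binds DNA at a short core, read here as ACGTG or GCGTG on either strand (CACGT or CACGC on the printed strand for the reverse). The promoter windows of the 2 genes with called probe sets are printed together with 1 of the 2 of LDHA, a standard HIF target whose transcript was level. They are RefSeq windows on GRCh38.p14, from 250 bases before to 50 after an annotated start, in the gene's own direction, with matches to the core in capitals. BNIP3 is on the minus strand at chr10:131981874-131982173, EGLN1 on the minus strand at chr1:231422238-231422537, and LDHA on the plus strand at chr11:18394313-18394612.
BNIP3: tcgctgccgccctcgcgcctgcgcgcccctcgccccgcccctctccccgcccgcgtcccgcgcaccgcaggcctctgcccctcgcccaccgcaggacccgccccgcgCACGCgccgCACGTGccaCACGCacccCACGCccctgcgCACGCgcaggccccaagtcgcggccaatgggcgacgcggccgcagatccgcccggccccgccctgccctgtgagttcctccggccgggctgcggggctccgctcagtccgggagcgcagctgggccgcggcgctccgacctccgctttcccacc
EGLN1: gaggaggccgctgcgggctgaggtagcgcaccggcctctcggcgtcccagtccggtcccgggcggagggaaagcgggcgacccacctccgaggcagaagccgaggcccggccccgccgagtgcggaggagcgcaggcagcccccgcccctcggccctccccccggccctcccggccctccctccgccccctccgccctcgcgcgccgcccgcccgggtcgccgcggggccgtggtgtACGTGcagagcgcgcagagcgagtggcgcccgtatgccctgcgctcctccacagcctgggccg
LDHA: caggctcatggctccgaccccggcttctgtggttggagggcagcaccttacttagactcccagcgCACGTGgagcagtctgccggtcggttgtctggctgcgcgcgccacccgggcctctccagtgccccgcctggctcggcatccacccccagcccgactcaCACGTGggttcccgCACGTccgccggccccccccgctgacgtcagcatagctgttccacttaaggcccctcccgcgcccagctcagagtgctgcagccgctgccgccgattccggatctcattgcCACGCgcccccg
The BNIP3 window holds 6 matches, between 143 and 104 bases before the start, and 2 of them overlap as the palindrome CACGTG. EGLN1 holds 1, at 13 bases before the start, and the LDHA window printed holds 6, of which 4 pair up in the same palindrome. LDHA has a second window, at chr11:18396101-18396400, with 1 match and no ACGTG. Of 31 genes with a window, 28 had a match in at least 1. A match was found in 37 of their 51 windows (72.5%) and in 48.4% of all 35116 windows of this length, and ACGTG alone in 43.1% and 21.4%. Matching letters are a description of the sequence and show no binding.

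Among HIF targets that act in the nucleus or have other roles, KDM3A had the tightest arrays. It encodes a histone H3 lysine demethylase that uses oxygen as a substrate. The mock arrays read 9.54, 9.55 and 9.55 and the anti-miR-21 arrays 9.36, 9.33 and 9.33. The groups were far apart relative to their spread, but the difference was small, -0.21 ± 0.04 SE on the log2 scale (adjusted p = 0.0747 in limma). The test passed in 2 of 13 alternative settings, without the filter on low values (adjusted p = 0.0381) and with probe sets averaged (0.0499), and in the others the adjusted p reached 0.269.

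ANKRD37, an ankyrin repeat gene induced by hypoxia, read 8.20, 8.48 and 8.44 in mock and 8.20, 7.87 and 7.95 with anti-miR-21. The highest treated array only just lay below the lowest mock array, and the log2 fold change was -0.37 ± 0.11 SE (limma adjusted p = 0.157). NDRG1, a stress- and hypoxia-induced gene, read 9.00, 9.38 and 9.10 in mock and 8.98, 8.91 and 8.89 with anti-miR-21. Its groups did not overlap, mock replicate 2 was the high array, and the log2 fold change was -0.23 (limma adjusted p = 0.291), or -0.12 without that array. MXI1, a MAX partner that opposes MYC, was level at 7.28 ± 0.04 and 7.31 ± 0.03 (SD, n = 3).

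The 2 collagen prolyl hydroxylase subunits in the list, which hydroxylate proline in procollagen and are induced by HIF-1, both had lower values. P4HA1 read 10.12, 10.33 and 10.34 in mock and 10.01, 9.90 and 9.99 with anti-miR-21. The groups did not overlap, the log2 fold change was -0.30 ± 0.08 SE (limma adjusted p = 0.111), and mock replicate 1 was the lowest mock array. P4HA2 read 10.39, 10.41 and 10.51 against 10.33, 10.19 and 10.24, also without overlap, at -0.18 ± 0.06 SE (limma adjusted p = 0.188). A second P4HA2 probe set was at -0.22. P4HA1 passed without mock replicate 1 (adjusted p = 0.0460).

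Of the secreted targets, VEGFA, the angiogenic growth factor, had higher means with anti-miR-21 on all 4 of its probe sets, with log2 fold changes of 0.20 to 0.41 and adjusted p values of 0.203 to 0.410. The representative read 10.30, 10.09 and 10.14 in mock and 10.17, 10.47 and 10.59 with anti-miR-21. Anti-miR-21 replicate 1 lay inside the mock range, so the groups overlapped (log2 fold change 0.23, 95% interval -0.04 to 0.51). Without anti-miR-21 replicate 3 it was 0.14, and without anti-miR-21 replicate 1 it was 0.35. A further VEGFA probe set, 212171_x_at, had no overlap, at 7.98, 7.99 and 7.88 against 8.04, 8.16 and 8.24.

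ERO1A, the endoplasmic reticulum oxidase that forms disulfide bonds, had log2 fold changes of -0.01 to 0.10 over 3 probe sets, and its representative did not overlap between groups (limma adjusted p = 0.379). ADM, which encodes the vasodilator peptide adrenomedullin, was level at 11.75 ± 0.06 and 11.75 ± 0.07 (SD, n = 3), with a 95% interval of the log2 fold change from -0.14 to 0.14.

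**Figure D3:**
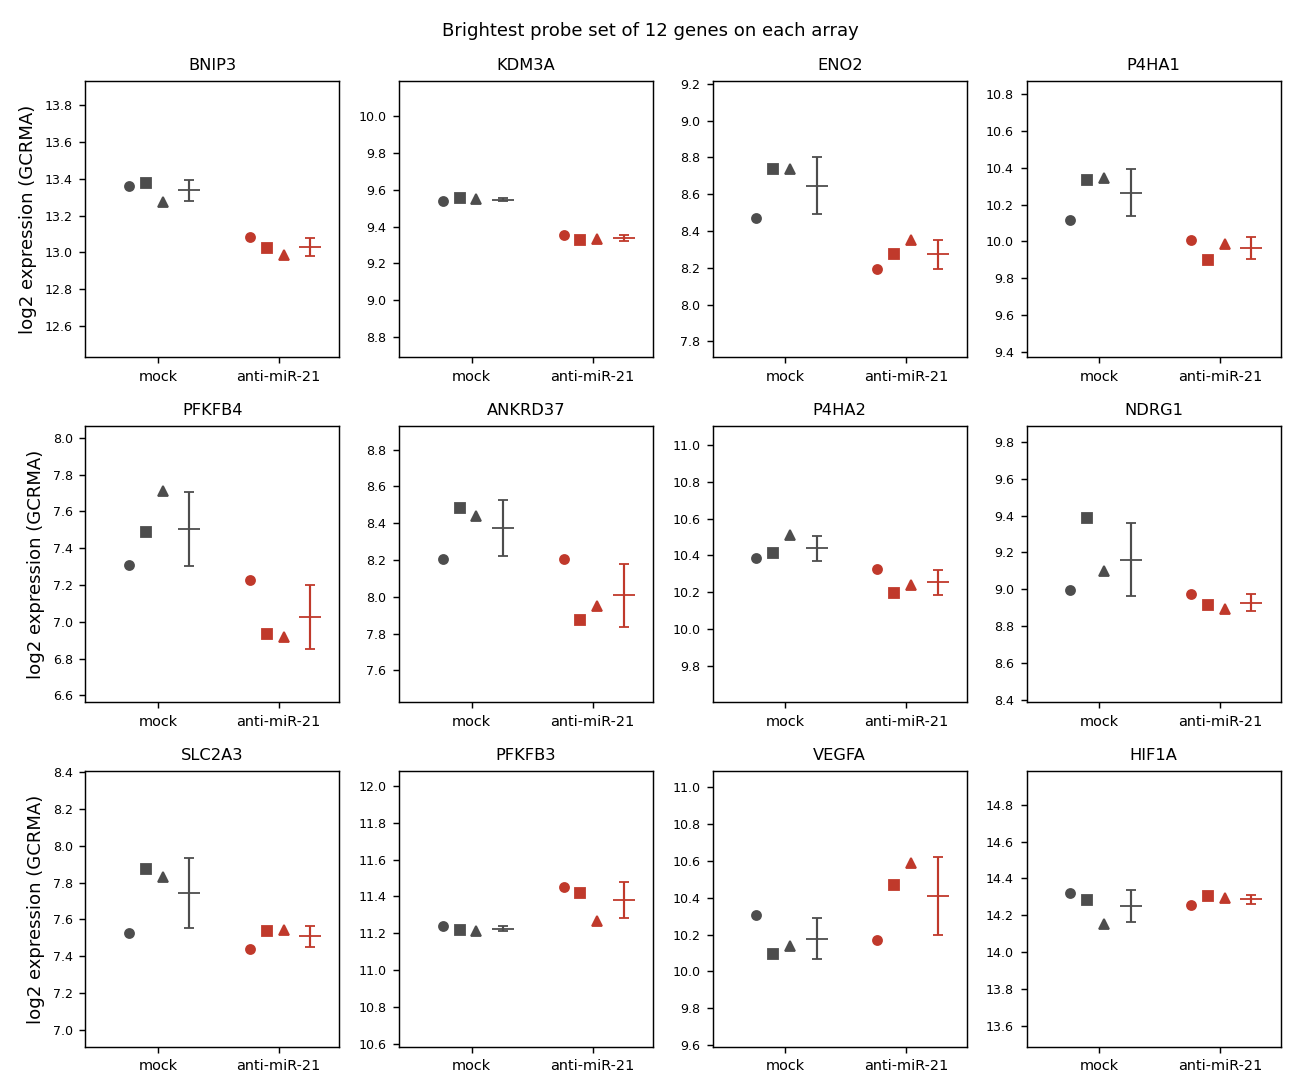
Log2 expression (vertical axis, a range of 1.5 in each panel) of the representative probe set of 12 genes, with circles, squares and triangles for replicates 1, 2 and 3 and the mean ± SD (n = 3) beside each group. Groups lie apart with little scatter in BNIP3 and KDM3A, apart by narrow margins in P4HA2 and ANKRD37, and overlap in VEGFA and HIF1A.

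The 15 glycolytic enzymes in the list comprise 8 of the preparatory phase and 7 of the payoff phase including lactate dehydrogenase. Of these, 14 were tested and none was called, with 10 log2 fold changes below 0 and 4 above. Apart from ENO2 and PKM, the other 12 lay between -0.13 and 0.07, and their 95% intervals between -0.28 and 0.26, which does not show that they stayed the same. These bounds are for the representative probe sets. Others of the same genes had wider intervals, as ENO1 240258_at (-0.17 to 1.26) and PGK1 217383_at (-0.82 to 0.70), or lay lower, as HK2 222305_at (-0.37 to -0.08).

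LDHA, which converts pyruvate to lactate, read 15.28, 15.41 and 15.40 in mock and 15.38, 15.33 and 15.36 with anti-miR-21. The treated arrays sat inside the mock range (log2 fold change -0.01, 95% interval -0.14 to 0.13, limma adjusted p = 0.964). The same held for GAPDH, the enzyme that makes NADH in the payoff phase, whose 3 probe sets were at -0.01 and whose representative read 15.24, 15.44 and 15.47 against 15.39, 15.35 and 15.38. In all 3 of them mock replicate 1 was the lowest array. PGK1, which returns the first ATP, had 5 tested probe sets at -0.12 to -0.03, and the representative read 14.76, 14.75 and 14.76 against 14.71, 14.67 and 14.69. Its groups did not overlap, at a difference of -0.07 (limma adjusted p = 0.494).

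In the preparatory phase, HK1 and HK2, the hexokinases that trap glucose in the cell, had representatives at -0.13 and -0.05, and all 3 HK2 probe sets were below 0. HK2 probe set 222305_at had the largest difference of these, at 8.06, 7.94 and 8.10 against 7.85, 7.77 and 7.80 (log2 fold change -0.23, limma adjusted p = 0.122). PFKP and PFKL, subunits of the committed enzyme phosphofructokinase, were at -0.11 and 0.07. GPI, ALDOA and TPI1, which interconvert the sugar phosphates, were at 0.03, -0.01 and -0.02, and PGAM1, the mutase of the payoff phase, at -0.05.

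ENO2, the neuronal enolase, is the other enolase measured. It read 8.47, 8.74 and 8.74 in mock and 8.19, 8.28 and 8.35 with anti-miR-21. The groups did not overlap, and the log2 fold change was -0.37 ± 0.09 SE (limma adjusted p = 0.0932, and 0.0381 without mock replicate 1). ENO1 was level at 14.68 ± 0.02 and 14.69 ± 0.01 (SD, n = 3). ENO2 minus ENO1 shifted by -0.38 between groups without overlap (two-sided exact permutation p = 0.1, 0.175 adjusted over 7 pairs).

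By representatives, PKM, the pyruvate kinase, was the enzyme with the highest log2 fold change, 0.25 (95% interval -0.07 to 0.58, limma adjusted p = 0.385). Its treated arrays spread widely there, at 13.92, 14.17 and 14.49, against 13.96, 13.90 and 13.97 in mock. Anti-miR-21 replicate 1 lay inside the mock range. The second PKM probe set, 213700_s_at, was at 0.05 (limma adjusted p = 0.860).

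The bifunctional enzymes that set fructose 2,6-bisphosphate, the activator of phosphofructokinase, had values on opposite sides of mock, neither called. PFKFB4 read 7.31, 7.49 and 7.71 in mock and 7.23, 6.93 and 6.92 with anti-miR-21, with no overlap and a difference of -0.48 ± 0.13 SE (adjusted p = 0.119 in limma). Its second probe set was at -0.09, and the average of both at -0.28. PFKFB3, the isoform with the strongest kinase activity, read 11.24, 11.22 and 11.21 in mock and 11.45, 11.42 and 11.27 with anti-miR-21, likewise without overlap and higher by 0.16 ± 0.06 SE on the log2 scale (limma, adjusted p = 0.261). PFKFB4 minus PFKFB3 shifted by -0.63 between groups (two-sided exact permutation p = 0.1, 0.175 adjusted over 7 pairs). Among the pairs not given elsewhere, PFKP minus PFKL and SLC2A3 minus SLC2A1 both shifted by -0.18 (exact permutation p = 0.1 and 0.3). HK2 minus HK1 shifted the other way, by 0.08, and P4HA2 minus P4HA1 by 0.12 (exact permutation p = 0.4 and 0.2). PDK1, the kinase that restrains pyruvate dehydrogenase, was at -0.03, with a second probe set at -0.14.

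Of the glucose transporters, SLC2A1 read 9.10, 9.24 and 9.36 in mock and 9.33, 9.06 and 9.15 with anti-miR-21, with overlapping groups (log2 fold change -0.06, 95% interval -0.28 to 0.17, limma adjusted p = 0.801). SLC2A3, the high-affinity transporter, read 7.52, 7.87 and 7.83 against 7.44, 7.54 and 7.54 on its representative (log2 fold change -0.24, limma adjusted p = 0.281). The groups overlapped there through mock replicate 1. Probe set 202499_s_at of the same gene did not overlap, at 7.44, 7.49 and 7.48 against 7.22, 7.28 and 7.20 (log2 fold change -0.23 ± 0.05 SE, limma adjusted p = 0.0724). SLC2A3 probe set 202498_s_at was at 0.07, and the average of all 3 at -0.13. SLC2A3 shares sequence with SLC2A14, so its separate level is uncertain.

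**Figure D4:**
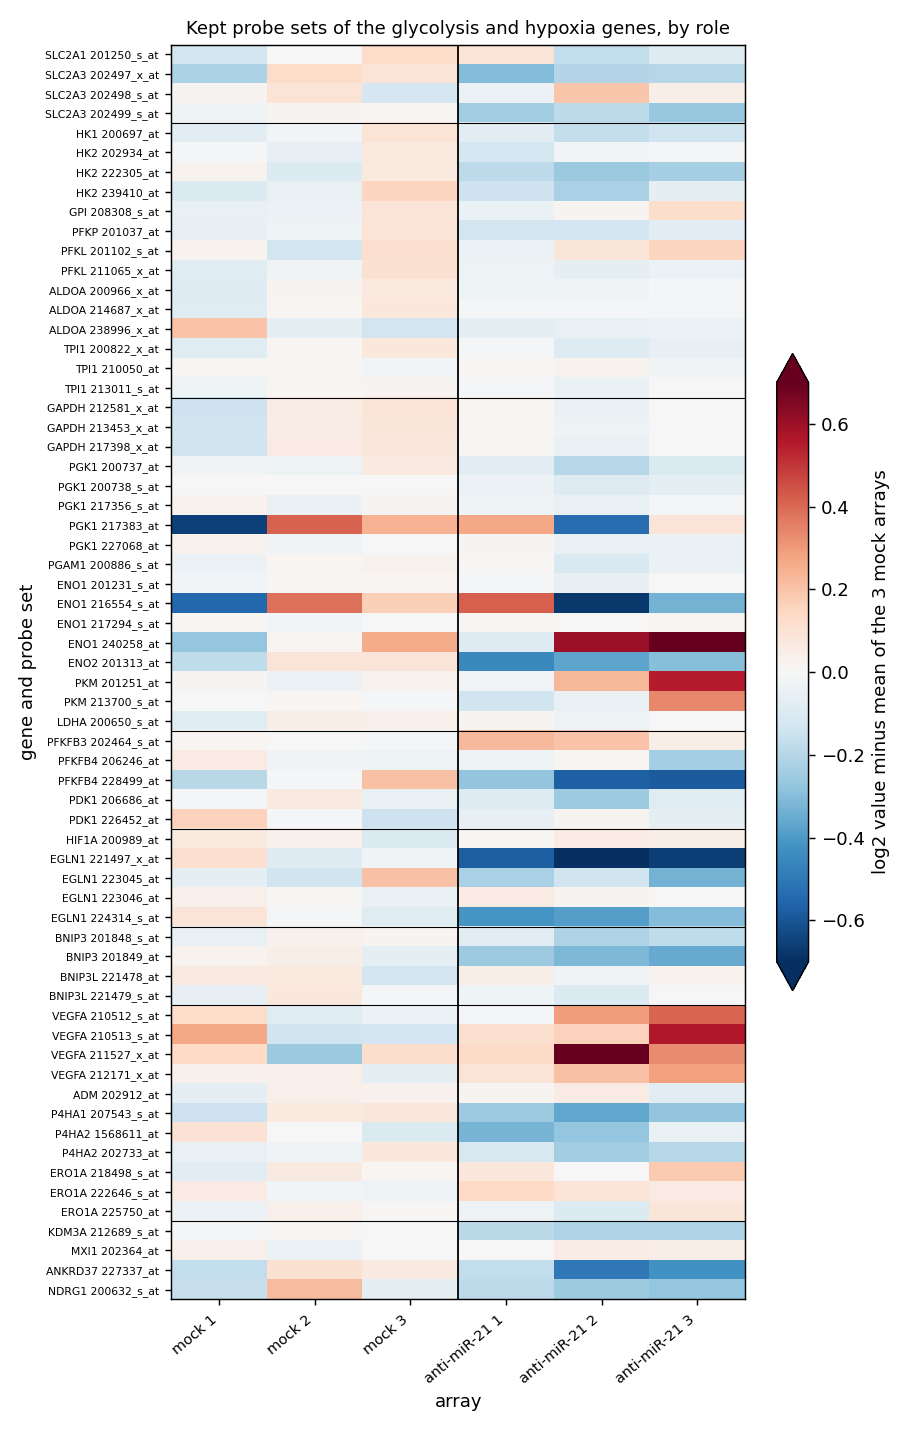
Log2 value minus the mean of the 3 mock arrays (colour) for the 64 tested probe sets, in rows grouped by role, on the 6 arrays, in columns. The EGLN1 probe sets 221497_x_at and 224314_s_at are blue on all 3 anti-miR-21 arrays, 223046_at of the same gene is near white, and most rows of the glycolytic enzymes are pale throughout.

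The wider pathway was read from 7 further lists holding 138 tested genes, of which 2 rose, 2 fell and 134 did not pass, where 2.13% of all genes were called in either direction. A share of 4 in 138 is near that background. Their median log2 fold change was -0.01. Among 22 regulators of the HIF pathway 1 fell. This was ARNT2, a partner subunit of HIF proteins, which read 7.19, 7.15 and 7.08 in mock and 6.60, 6.66 and 6.53 with anti-miR-21 and fell 1.46-fold (log2 fold change -0.55 ± 0.06 SE, limma adjusted p = 0.0108). Without anti-miR-21 replicate 3 or mock replicate 2 it did not pass (adjusted p = 0.0564 and 0.0667).

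Among 31 other HIF targets 2 rose and 0 fell, and 11 had an unadjusted p under 0.05, 6 of them lower, where 18.1% of all genes had such a p. MAFF, a small MAF transcription factor, read 11.42 ± 0.01 in mock and 11.76 ± 0.05 with anti-miR-21 (SD, n = 3), a rise of 1.26-fold by limma (adjusted p = 0.0256). TGFA, a ligand of the EGF receptor, read 6.16 ± 0.11 and 6.67 ± 0.09 (SD, n = 3), a rise of 1.42-fold by limma (adjusted p = 0.0276). In the pentose phosphate pathway, which branches from glycolysis at glucose 6-phosphate, 1 of 6 tested genes fell. This was PGD, its second dehydrogenase, at 12.17 ± 0.04 and 11.81 ± 0.07 (SD, n = 3), a fall of 1.29-fold (limma adjusted p = 0.0280). PGD did not pass with 1 array fewer, whichever it was (adjusted p = 0.0520 to 0.110). That of MAFF was lost without any array but anti-miR-21 replicate 1 (0.0546 to 0.115), and that of TGFA without any array but mock replicate 1 (0.0578 to 0.113). MAFF also did not pass with median centring (0.0714) or averaged probe sets (0.0608), nor TGFA without the filter on low values (0.0502).

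In the other 4 lists no gene passed, and unadjusted p values under 0.05 were no more frequent than the 18.1% over all genes. Of 21 further glycolysis and lactate genes, 1 had an unadjusted p under 0.05, and the glucose transporter SLC2A10 was at -0.51 and the glycerol phosphate dehydrogenase GPD2 at 0.15 (limma adjusted p = 0.113 and 0.284). Of 22 genes of pyruvate dehydrogenase and the TCA cycle, 2 had an unadjusted p under 0.05, PDP1, a phosphatase that activates pyruvate dehydrogenase, at 0.29 and the isocitrate dehydrogenase subunit IDH3A at 0.11 (adjusted p = 0.124 and 0.281). Of 21 mitophagy genes, 2 had such a p, the deubiquitinase USP30 at -0.25 and the receptor BCL2L13 at -0.14 (adjusted p = 0.147 and 0.239). Of 15 paralogs and partners of the list, 2 had such a p, the lymphatic growth factor VEGFC at -0.28 and MYC at 0.21 (adjusted p = 0.0988 and 0.196).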

How the data were processed

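RNA of 6 samples was measured on 1 array each. The deposited table holds the authors' log2 values of 54675 probe sets. GCRMA is the method named in the submitters' processing notes, with version and settings not given in the sources used here. GCRMA can compress values at low signal, so differences between the dimmest probe sets may be understated, which was not tested. A probe set took its gene name from the platform's annotation where that lists 1 gene, with symbols looked up by Entrez identifier in a RefSeq table (GRCh38.p14), and 62 control probe sets were left out. The values were used without further normalization. Of the other probe sets, 22408 had a mean of at least 4 and were tested in limma (version 3.58.1, R 4.3.3), with lmFit, eBayes and 3 against 3 samples (two-sided, Benjamini-Hochberg over all of them, threshold 0.05). The fit was tested on simulated data. Exact permutation tests used scipy 1.17.1. No scanner file was used here, and the small number of arrays limits the precision. Replicates are labelled biological, with no word on separate cultures, so p-values reflect only how these samples vary, which may be technical. The main fit did not pair arrays by replicate number. With the group mean of each probe set subtracted, same-numbered samples correlated at -0.361, -0.266 and -0.002. With 3 arrays a group such deviations sum to 0 within the group, so these correlations are weak evidence on pairing.

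Members, gene lists and tests were chosen with earlier results of these data known. The naming rule gives array values for member genes with a called probe set, the 10 members with the smallest p, and HIF1A, LDHA, SLC2A1 and VEGFA, and for other lists the called genes or else the 2 with the smallest p. Array values of HK2, BNIP3L, GAPDH, PGK1 and PKM were added after values were seen, as was the comparison of a gene's probe sets with each other. Alternatives were the filter, centring, quantile normalization, trended and robust variances, the replicate block, averaged probe sets, representatives other than _x_at and _s_at, and each array left out.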

Additional observations from a re-analysis of the deposited data

How the results depend on the processing

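With the replicate block, 16 genes were higher and 16 lower in all, 54 and 37 probe sets, 0 member genes, 1 member probe set (221497_x_at of EGLN1), and 0 genes up and 0 down in the pathway lists. With probe sets averaged, 161 genes were higher in all, 2 members were lower (EGLN1 and KDM3A, without BNIP3), and 4 and 5 pathway genes were higher and lower. Median centring left 0 member genes. Without the filter, 158 probe sets and 1 pathway gene were higher, and the 1 member that passed was KDM3A, not BNIP3 (adjusted p = 0.0502). Leaving out 1 array gave 14 to 91 genes higher and 24 to 135 lower, 47 to 345 and 47 to 227 probe sets, 0 to 2 member genes lower (ENO2 and P4HA1 without mock replicate 1), 0 to 3 member probe sets lower, and 0 to 4 and 0 to 3 pathway genes. No setting called a member higher.

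Signs turned for values near 0. EGLN1's representative was at -0.0113 and HIF1A at -0.0009 with median centring. The average of all 4 EGLN1 probe sets, a different quantity from its representative, was at -0.31. With 1 array left out, HIF1A ranged from -0.0125 to 0.0714, LDHA from -0.0480 to 0.0169, SLC2A1 from -0.131 to 0.0081, and the 3' minus 5' shift from -0.0048 to 0.0064 for GAPDH and from -0.0050 to 0.0633 for ACTB. Differences between probe sets ranged from -0.14 to 0.10 in ALDOA, -0.121 to 0.0605 in P4HA2, -0.12 to 0.0015 in BNIP3L and -0.0068 to 0.0043 in GAPDH, which was at 0.0002 with quantile normalization. The causes were not tested. Of 391 comparisons of 29 named fold changes, 331 kept direction and side of the threshold, 46 lost the call, 5 gained it and 9 turned sign. Only fold changes called in the main fit could lose a call, namely BNIP3, ARNT2, MAFF, TGFA, PGD and the called EGLN1 probe sets. All 46 losses fell on these. Most of the 331 were uncalled fold changes that stayed uncalled, so that number does not measure how well the calls held. With 3 arrays a group, the size of a change did not decide alone what passed. In the main fit BNIP3 passed at 1.24-fold, whereas PFKFB4 at 1.39-fold and ENO2 at 1.30-fold did not.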

Other observations

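Some low-level probe sets of abundant enzymes varied from array to array far more than the others of the same gene, and not by group. PGK1 probe set 217383_at read 6.74, 7.81 and 7.64 in mock and 7.67, 6.86 and 7.49 with anti-miR-21, while the PGK1 representative stayed between 14.67 and 14.76. ENO1 probe set 216554_s_at read 7.03, 7.97 and 7.75 in mock and 8.002, 6.91 and 7.25 with anti-miR-21, while the ENO1 representative stayed between 14.66 and 14.70. In both, mock replicate 1 and anti-miR-21 replicate 2 were the lowest arrays of their groups. The same 2 arrays were the lowest of their groups on the 3 GAPDH probe sets and on LDHA. Another low-level ENO1 probe set, 240258_at, read 6.27, 6.56 and 6.81 against 6.45, 7.15 and 7.67, and anti-miR-21 replicate 3 was also the highest array for both PKM probe sets and for 3 of the 4 VEGFA probe sets.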
